A study of Mus musculus with 26 samples.

Results

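The comparison is the early response of the lung to ozone: 3 arrays of Il10+/+ mice after 24 hr of O3 at 0.3 ppm, against the 4 arrays of Il10+/+ mice kept in filtered air, 2 of them for 24 hr and 2 for 48 hr. These 7 arrays are all the Il10+/+ arrays of those exposures among the 26 of the series, picked by their titles. The mice were C57BL/6 males of 6-8 weeks, wild type at the gene for interleukin-10, and the 24 hr exposure ran at 23.5 hr per day. The whole study asked how interleukin-10 bears on the lung's response to O3, and it also has O3 arrays at 48 and 72 hr and the same exposures in Il10-/- mice, which lack interleukin-10. Total RNA of the left lung, which was frozen without lavage, was hybridised to Affymetrix mouse arrays, and the label text calls the arrays of a group biological replicates. Values are log2 intensities after Robust Multichip Average normalization, and 12394 genes were tested, each through its brightest probe set.

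Ozone is an oxidant gas that reacts at the airway surface with lining fluid and epithelial membranes. The products are known to release the transcription factor NRF2 in exposed cells, which turns on antioxidant and detoxifying enzymes, and injured epithelium and macrophages send out chemokines and cytokines that draw white cells into the airways. Acute phase proteins, metallothioneins and tissue factor are further classes known to respond to lung injury, and epithelial cells divide later to repair the airway lining.

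The arrays carried the lung's own markers. The surfactant protein gene Sftpb, a marker of alveolar type 2 cells, had log2 values of 13.57, 13.36 and 13.37 on the O3 arrays, against 13.38, 13.19, 13.42 and 13.30 on the air arrays. The air values are given throughout in the order air 24 hr replicates 1 and 2, then air 48 hr replicates 1 and 2. Pearson's r over all probe sets lay between 0.981 and 0.996 among the 7 arrays. Between the 24 hr and the 48 hr air arrays no gene was called at an adjusted p under 0.05 in limma, and 300 passed an unadjusted p of 0.05. One array elsewhere in the series, Il10-/- O3 24 hr replicate 2, had an r of 0.847 to 0.879 with the others and was left out of the main fit, which holds 25 arrays in 8 groups.

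Called genes are those with an adjusted p under 0.05 (limma, Benjamini-Hochberg over all genes). At 24 hr of O3, 6 genes rose in Il10+/+ lung and none fell. The 6 were Ccl17, Cd14, Akr1b8, Osgin1, F3 and Thbs1, with rises of 1.62-fold to 2.89-fold. They are 0.0484% of the 12394 genes tested, and the share called lower was 0%. An unadjusted p under 0.05 was reached by 433 genes with a higher and 297 with a lower mean after O3. The median change over all genes was 0.01 on the log2 scale.

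Ccl17, the chemokine ligand of the receptor CCR4 on T helper cells, had log2 values of 8.77, 8.76 and 8.80 on the O3 arrays, against 7.46, 7.56, 7.18 and 6.79 on the air arrays. All O3 values lay over 1 above the highest air value, and the O3 arrays differed from each other by far less than the air arrays did. The change was 1.53 (standard error 0.24, 2.89-fold, adjusted p = 0.0206). Cd14, the co-receptor that hands bacterial endotoxin to Toll-like receptor 4, had 9.57, 9.98 and 9.69 after O3, against 8.53, 8.98, 9.01 and 8.94 in air, a change of 0.89 (standard error 0.14, 1.85-fold, adjusted p = 0.0206). The groups did not overlap, and air 24 hr replicate 1 was the lowest of the 7 arrays.

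Akr1b8 and Osgin1, both tied to oxidative stress, were among the 6. Akr1b8, an aldo-keto reductase that detoxifies reactive aldehydes, had 8.96, 9.06 and 8.75 after O3, against 7.91, 8.26, 8.31 and 7.81 in air. Its change was 0.85 (standard error 0.15, adjusted p = 0.0388). Osgin1, a growth inhibitor induced by oxidative stress, had 7.75, 7.97 and 7.91 after O3, against 7.12, 6.92, 7.37 and 7.29 in air. This was the smallest of the 6 changes, at 0.70 (standard error 0.12, adjusted p = 0.0390).

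The remaining pair act in clotting and the matrix. F3 encodes tissue factor, the cell surface protein that starts coagulation, and had 8.24, 8.45 and 8.35 after O3, against 7.11, 7.34, 7.34 and 7.05 in air. Its change was 1.13 (standard error 0.21, adjusted p = 0.0486), and the groups lay apart by more than the range of either. Thbs1, the matrix glycoprotein thrombospondin 1, had 10.35, 10.34 and 11.16 after O3, against 9.19, 9.59, 9.11 and 9.48 in air. O3 replicate 3 was the highest, and its other probe set also had a higher mean after O3, by 1.49. The change of 1.27 (standard error 0.24) had an adjusted p of 0.04997, just inside the threshold, and the first gene outside it was Cys1, which encodes the cilium protein cystin, at 0.0519. Called genes changed with the arrays used: without O3 replicate 1, 2 or 3, or without air 48 hr replicate 2, none of the 6 passed, without air 24 hr replicate 1 only Ccl17 did, and with all 26 arrays none did. Against the 2 air arrays of 24 hr alone, only Osgin1 of the 6 passed. In a fit to the 7 arrays alone 9 genes were called, with Ccl17 and F3 of the 6 among them, and the other 4 had adjusted p-values of 0.0974 to 0.112.

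**Figure D1:**
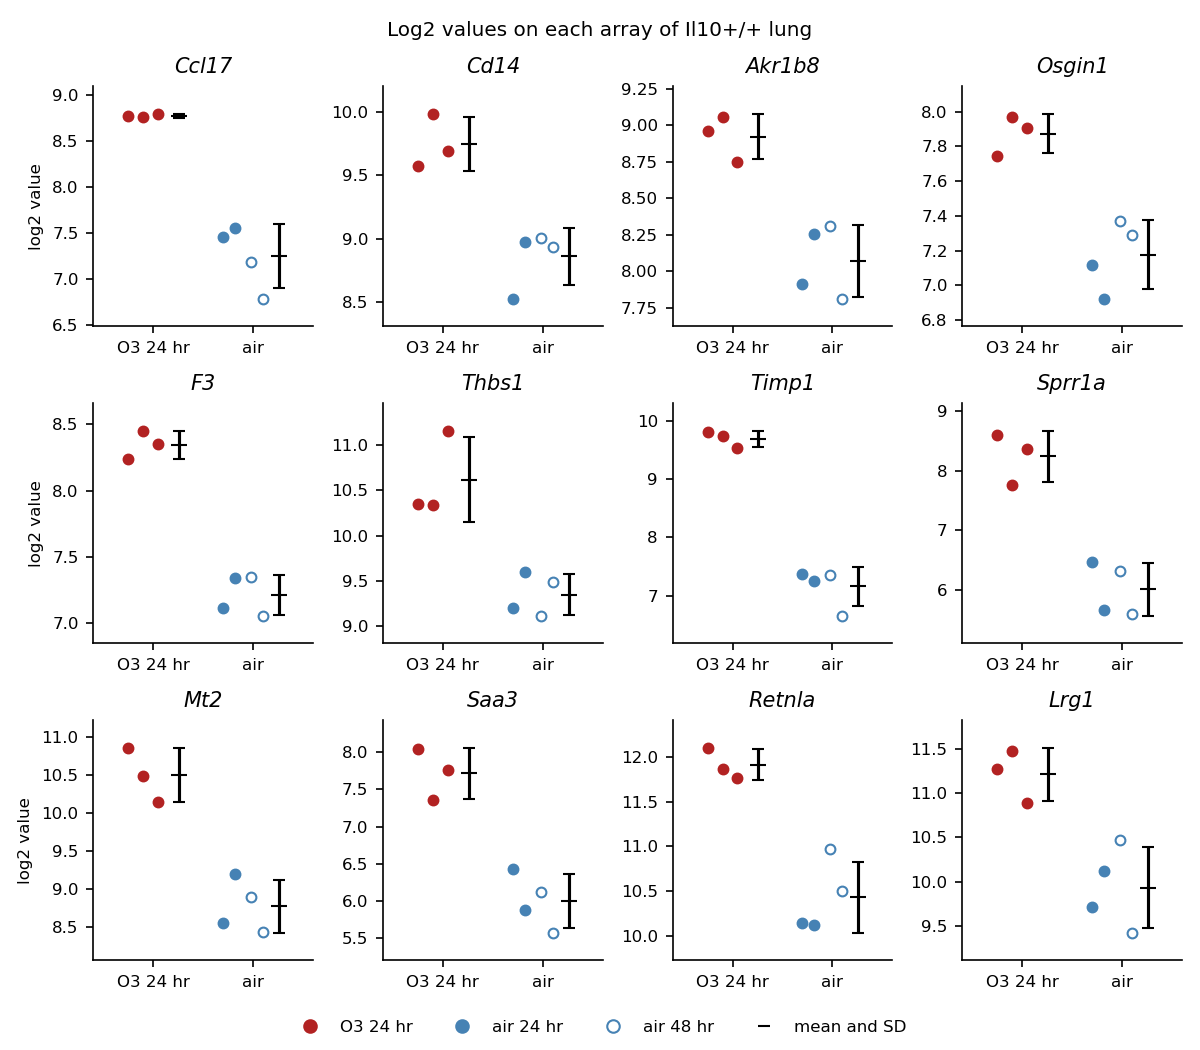
Log2 values of 12 genes on each array, with O3 24 hr (red, 3 arrays) left of air (blue, 24 hr filled and 48 hr open, 4 arrays); the black marks are group means and SDs. In every panel the lowest O3 array lies above the highest air array, with the widest gap between the means at Timp1, 2.53 on the log2 scale.

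The spread that sets these tests is shared by all groups of a fit. When the fit was limited to the 13 Il10+/+ arrays, 32 genes rose (0.258% of those tested) and 2 fell (0.0161%), and in all 34 the O3 and air arrays did not overlap. Of the 6 genes above, 5 were among the 32, and Osgin1 had an adjusted p of 0.0713. With 1 of the 7 arrays left out, this fit called between 12 genes (without O3 replicate 3) and 43 genes (without air 48 hr replicate 1), with 19 without O3 replicate 2 or air 24 hr replicate 1.

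Timp1, an inhibitor of matrix metalloproteinases that is also secreted in the acute phase, had the largest change of any gene. Its log2 values were 9.80, 9.74 and 9.54 after O3, against 7.38, 7.26, 7.35 and 6.66 in air, so that the lowest O3 array stood over 2 above the highest air array. The change was 2.53, or 5.78-fold. Its standard error was 0.17 and its adjusted p 8.88e-06 over the 13 arrays, and the adjusted p stayed at or below 0.000191 with any 1 of the 7 arrays left out. Over 25 arrays the standard error was 0.60 and the adjusted p 0.194.

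Sprr1a, a precursor of the cornified envelope built by injured squamous epithelium, had 8.60, 7.77 and 8.36 after O3, against 6.46, 5.66, 6.32 and 5.59 in air. The change was 2.24, or 4.71-fold, with an adjusted p of 0.00173 over 13 arrays and 0.0940 over 25. Tgm1, the transglutaminase that cross-links that envelope, was higher by 0.89 (adjusted p = 0.00692 over 13 arrays). In Retnla, a secreted protein of alternatively activated macrophages and airway epithelium, the values were 12.10, 11.87 and 11.77 after O3, against 10.15, 10.12, 10.97 and 10.50 in air. Its change was 1.48 (2.79-fold), with an adjusted p of 0.00182 over 13 arrays and 0.0597 over 25.

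Saa3, an acute phase serum amyloid made in the lung, had 8.04, 7.36 and 7.76 after O3, against 6.43, 5.88, 6.13 and 5.58 in air. The change was 1.71, or 3.28-fold (adjusted p = 0.00141 over 13 arrays, 0.330 over 25). Lcn2, which binds bacterial iron carriers, was higher by 0.71 (adjusted p = 0.0141 over 13 arrays), and Pigr, which carries IgA across epithelium, by 1.16 (adjusted p = 0.0176). Lrg1, a secreted glycoprotein of the acute phase, had 11.27, 11.48 and 10.89 after O3, against 9.71, 10.12, 10.47 and 9.42 in air. Lrg1 passed in neither fit, with a change of 1.28 and adjusted p-values of 0.0597 over 25 and 0.0535 over 13 arrays.

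Other genes called over the 13 arrays came from several classes. Ch25h, which makes 25-hydroxycholesterol, had 7.69, 7.68 and 7.64 after O3, against 6.60, 6.84, 6.49 and 6.41 in air (change 1.09, adjusted p = 0.00173). Ccl2, the main chemokine for monocytes, had 6.17, 6.31 and 6.33 after O3, against 5.40, 5.58, 5.01 and 5.59 in air (change 0.87, adjusted p = 0.0141). Both genes were tight among the O3 arrays. Fkbp5, a co-chaperone of the glucocorticoid receptor, was higher by 0.91, Tnfrsf12a, the receptor for the cytokine TWEAK, by 0.96, and the 4-1BB ligand gene Tnfsf9 by 0.72. Ctps, which makes CTP, was higher by 0.68, and Srm, which makes spermidine, by 0.60. The remaining higher genes were Ankrd1, Cys1, Fdps, Gadd45g, Lss, Map3k6, Medag, Mrps18b, Mt1, Mt2, Ppa1, Sqle and Tspan4, with changes of 0.51 to 1.72.

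The 2 genes that fell over the 13 arrays were Vcam1 and Lmo2. Vcam1, the adhesion molecule by which activated endothelium holds lymphocytes and monocytes, had 9.21, 9.20 and 9.18 after O3, against 9.73, 9.87, 9.88 and 9.65 in air, and fell by 0.59 (adjusted p = 0.0178). A second of its 3 probe sets had a change of -0.41 and the third, the dimmest, one of -0.02. Lmo2, a transcriptional co-factor of blood and endothelial cells, had 9.19, 9.26 and 9.16 after O3, against 9.59, 9.65, 9.66 and 9.79 in air, and fell by 0.47 (adjusted p = 0.0476). Neither passed over 25 arrays, where their adjusted p-values were 0.560 and 0.561.

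The 250 bases before the annotated start of F3, Sprr1a, Osgin1 and Mt2 are shown because they hold the AP-1 site TGANTCA, which binds dimers of JUN and FOS proteins. A promoter from the RefSeq table for GRCm38.p6 was searched for 28 of 37 genes looked up. The 37 were those called in either fit and the 15 largest higher changes without overlap. Among the 28, these 4 were the ones with the site on either strand. Over the 32851 promoters counted for comparison, windows of the same length held it in 6.75%. The capitals mark the sites, and each window is written 5′ to 3′ on the gene's own strand. A match of letters is a description and not a site shown to be bound.
F3 (chr3:121723287-121723536, plus strand): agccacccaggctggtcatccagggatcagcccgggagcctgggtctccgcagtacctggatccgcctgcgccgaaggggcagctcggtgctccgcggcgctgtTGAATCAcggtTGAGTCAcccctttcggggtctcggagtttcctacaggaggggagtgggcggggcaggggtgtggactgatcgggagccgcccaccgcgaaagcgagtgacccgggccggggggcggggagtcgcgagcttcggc
Sprr1a (chr3:92485882-92486131, minus strand): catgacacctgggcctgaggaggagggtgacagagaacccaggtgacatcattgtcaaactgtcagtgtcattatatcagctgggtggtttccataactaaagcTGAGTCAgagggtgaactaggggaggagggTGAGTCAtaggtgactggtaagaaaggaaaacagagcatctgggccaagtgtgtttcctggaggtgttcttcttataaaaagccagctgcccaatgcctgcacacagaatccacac
Osgin1 (chr8:119436897-119437146, plus strand): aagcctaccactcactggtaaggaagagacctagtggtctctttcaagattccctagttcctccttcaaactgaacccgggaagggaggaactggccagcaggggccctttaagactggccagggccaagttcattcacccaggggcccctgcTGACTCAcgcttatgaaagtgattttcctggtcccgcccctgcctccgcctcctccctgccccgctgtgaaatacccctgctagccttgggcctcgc
Mt2 (chr8:94172368-94172617, plus strand): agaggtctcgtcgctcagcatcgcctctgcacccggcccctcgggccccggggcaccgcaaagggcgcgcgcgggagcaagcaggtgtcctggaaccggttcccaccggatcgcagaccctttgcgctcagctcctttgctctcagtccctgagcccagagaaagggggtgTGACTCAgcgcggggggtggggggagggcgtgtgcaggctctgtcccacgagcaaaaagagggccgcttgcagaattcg

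F3 and Sprr1a each held 2 such sites within the window, and Osgin1 and Mt2 held 1. In F3 the sites lay at -146 to -140 and -135 to -129, counted in bases from the start. The site of Mt2, at -79 to -73, lies inside a match to TGACNNNGC, the core of the antioxidant response element to which NRF2 binds, and 1 site of Sprr1a lies inside such a match on the other strand. That core was found in 5 of the 28 genes and in 10.2% of all windows, and not in the window of Osgin1. The letters TGCNCNC are a loose form of the metal response element core, at which the zinc sensor MTF1 acts. They occurred 5 times in the Mt2 window and in 44.4% of all windows, and not every match fits the stricter core. The STAT site TTCNNNGAA was in 3 of the 28 genes, Ccl17, Medag and Tgm1, and in 7.02% of all windows. These counts are of genes while the shares are of windows, and a gene with more than 1 window counts if any of them holds the site. Genes looked up but not searched, Cd14 among them, are in none of these counts, and whether they hold a site was not tested.

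Gene lists were described by how many members had every O3 array above, or below, every air array. Over all genes this held for 545 above (4.4%) and 445 below (3.59%), so a list with shares near these is like the rest of the array. The called genes of each list in the 25-array fit were those among the 6 named above.

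Of 36 NRF2 targets and antioxidant enzymes, 9 were above air and 1 was below, and the median change was 0.13. Akr1b8 and Osgin1 rose, and no member fell. Txnrd1, the thioredoxin reductase of the cytosol, had 9.91, 10.13 and 9.98 after O3, against 9.43, 9.82, 9.59 and 9.52 in air (change 0.42, adjusted p = 0.0943). Hmox1, which breaks down heme, had 7.74, 7.94 and 8.04 after O3, against 7.20, 7.61, 7.49 and 7.32 in air (change 0.50, adjusted p = 0.266). Gpx2, the glutathione peroxidase of epithelium, had a change of 0.75 (adjusted p = 0.445). Nfe2l2, the gene of NRF2 itself, was above air (change 0.33), and the member below air was Cat, which encodes catalase (change -0.25).

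Of 7 genes of metallothioneins and zinc transport, 3 were above air and none below. Mt2, a metallothionein that binds zinc and copper, had 10.86, 10.49 and 10.14 after O3, against 8.55, 9.20, 8.89 and 8.44 in air. Its change was 1.72, or 3.30-fold, with an adjusted p of 0.0578 over 25 and 0.00484 over 13 arrays. Mt1, the neighbouring metallothionein gene, had a change of 0.77 (adjusted p = 0.136 over 25, 0.0451 over 13). Slc39a14, which imports zinc, had 7.96, 7.93 and 7.80 after O3, against 7.31, 7.44, 7.67 and 7.33 in air. The metal sensor gene Mtf1 (change 0.02) and Mt3 (change -0.05) overlapped between the groups.

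Among acute phase genes and targets of STAT3, 11 of 27 were above air and none below, with a median change of 0.31. None passed over 25 arrays, and Timp1, Saa3 and Lcn2 did over 13. Besides these and Lrg1, the members above air were Osmr, Bcl3, Il4ra, Pim1, Itih4, Hp and Lif. Osmr, the receptor subunit for oncostatin M, had 9.68, 10.01 and 9.73 after O3, against 9.10, 9.34, 9.61 and 8.70 in air (change 0.62, adjusted p = 0.194). Socs3, the STAT3-induced brake on cytokine signalling, had 9.66, 9.22 and 9.51 after O3, against 7.99, 8.64, 9.31 and 8.40 in air. Air 48 hr replicate 1 lay above O3 replicate 2, and the change of 0.88 had an adjusted p of 0.330. These are values of the brightest of its 3 probe sets. The second had 9.28, 9.52 and 9.31 after O3, against 7.69, 8.32, 8.69 and 8.24 in air, with no overlap, and passed when every probe set was tested as its own feature (change 1.13, standard error 0.19, adjusted p = 0.0460 over 25 arrays). The third, also without overlap, had a change of 0.96 (adjusted p = 0.442 in that test). Stat3 itself had a change of 0.02 on its brightest probe set, and on the next one 10.44, 10.53 and 10.47 after O3, against 10.04, 10.05, 10.23 and 10.04 in air (change 0.39, adjusted p = 0.175 among all probe sets).

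Sterol synthesis had the highest share without overlap of any list, 8 of 14 above air and none below. None of the 14 passed over 25 arrays, and Lss, Sqle and Fdps did over 13. Sqle, which makes the epoxide that Lss closes into lanosterol, had 8.96, 9.11 and 9.004 after O3, against 8.56, 8.34, 8.39 and 8.40 in air (change 0.60, adjusted p = 0.0141 over 13 arrays). Lss had 7.47, 7.34 and 7.44 after O3, against 6.92, 6.78, 6.57 and 6.80 in air (change 0.65, adjusted p = 0.0141 over 13). A dimmer probe set of Lss had a change of -0.05. Fdps, which makes farnesyl diphosphate, was higher by 0.79 (adjusted p = 0.0302 over 13), and Fdft1, Idi1, Cyp51, Mvk and Nsdhl were the others above air.

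Among genes of keratins and injured epithelium, 7 of 18 were above air and none below, with a median change of 0.29. Besides Sprr1a they were Lgals3, Sfn, Plaur, Krt19, S100a14 and Krt18. Lgals3, the lectin galectin 3, had 12.04, 12.30 and 12.14 after O3, against 11.71, 11.62, 11.71 and 11.81 in air (change 0.45, adjusted p = 0.194). S100a14, a calcium-binding protein of epithelium, had 6.31, 6.42 and 6.25 after O3, against 5.57, 5.90, 5.86 and 5.73 in air (change 0.56, adjusted p = 0.821).

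**Figure D2:**
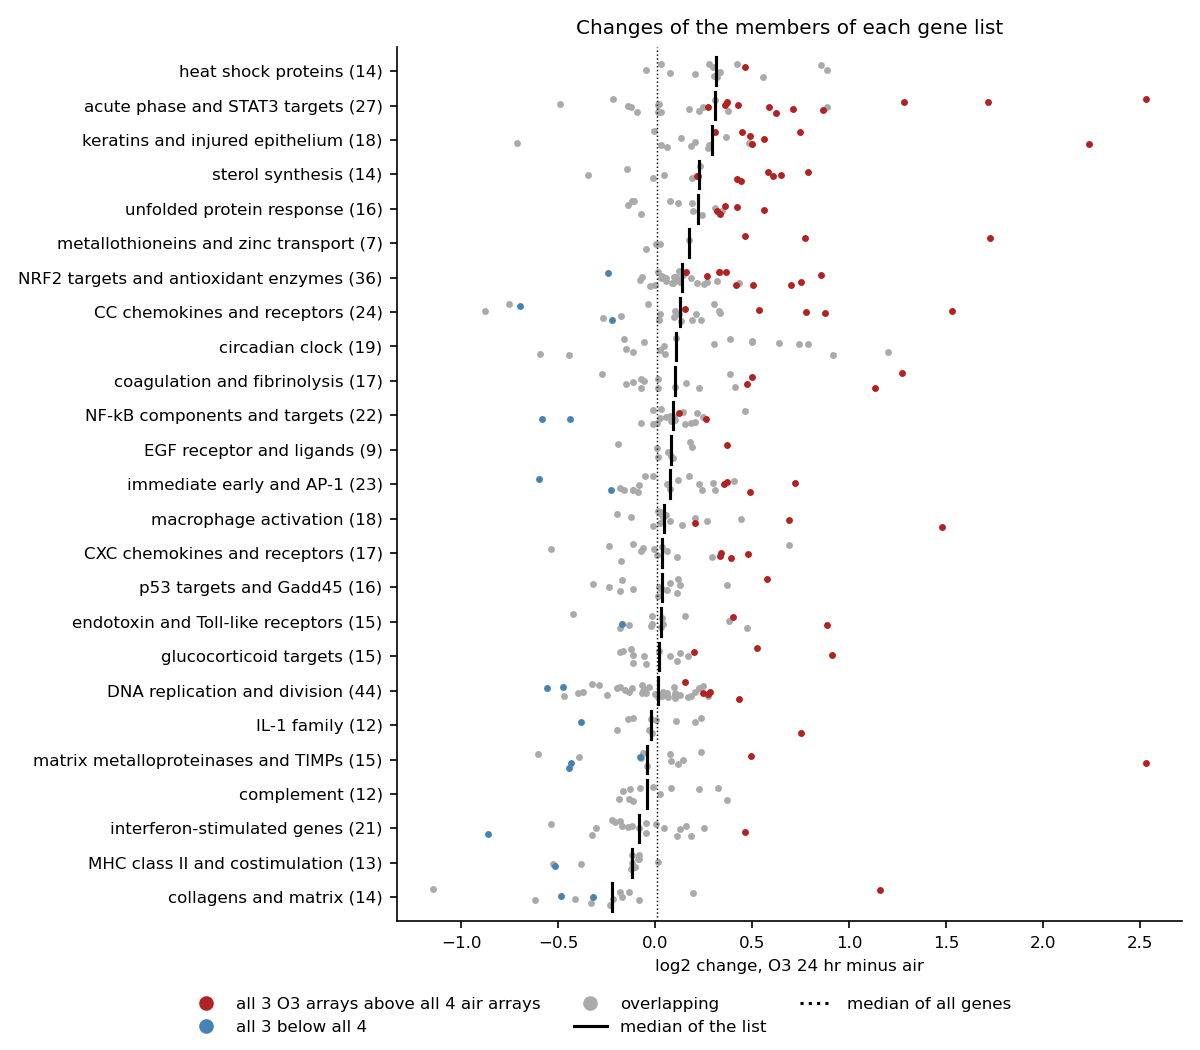
Log2 change of each measured member of 25 gene lists (horizontal axis, O3 24 hr minus air), with the number measured in brackets; red members have all 3 O3 arrays above all 4 air arrays, blue all 3 below, grey overlap, and the black bar is the median of the list. Sterol synthesis has 8 of 14 members in red, acute phase and STAT3 targets 11 of 27, and the clock and complement lists none in either colour.

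In coagulation and fibrinolysis, F3 and Thbs1 rose, and Plaur, the urokinase receptor, and F7, coagulation factor VII, were also above air, 4 of 17 in all and none below. Of 24 CC chemokines and receptors, 5 were above air (Ccl17, Ccl20, Ccl2, Ccl22 and Ccl3) and 2 below (Ccr2 and Ccl25). Ccl20, which draws cells with the receptor CCR6, had 6.04, 5.53 and 6.10 after O3, against 5.10, 5.13, 5.09 and 5.14 in air (change 0.77, adjusted p = 0.149). Ccl22, the other ligand of CCR4, had 7.09, 7.20 and 6.67 after O3, against 6.44, 6.42, 6.56 and 6.41 in air (change 0.53, adjusted p = 0.889). Ccr2, the receptor for Ccl2 on monocytes, had 6.51, 6.45 and 5.93 after O3, against 7.01, 7.05, 6.79 and 7.13 in air.

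The 4 CXC genes above air, of 17, were ligands: Cxcl1, Cxcl2 and Cxcl5, which draw neutrophils, and Cxcl10, which draws T cells. Cxcl2, which encodes MIP-2, had 4.41, 4.65 and 4.42 after O3, against 4.13, 4.14, 4.18 and 4.19 in air, near the low end of the scale (change 0.34, adjusted p = 0.445). Among Toll-like receptor genes, Myd88, the adaptor that Toll-like receptors signal through, had 9.29, 9.29 and 9.30 after O3, against 8.88, 8.93, 8.95 and 8.84 in air (change 0.40, adjusted p = 0.413). Traf6, which acts further down that pathway, was below air, with a change of -0.17, and the other 12 of the 15 members overlapped. Il33, the alarmin of epithelium and endothelium, had 10.09, 10.63 and 10.27 after O3, against 9.33, 9.88, 9.99 and 9.11 in air (change 0.75, adjusted p = 0.330). Casp1, the protease that activates interleukin 1β, was below air, with a change of -0.39.

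Of 22 measured genes that the study's text names, Saa3, Il33, Cxcl2 and S100a14 were above air and none was below. None was called over 25 arrays through its brightest probe set, and Socs3 passed on another one, as given above. Il10 had 4.03, 4.08 and 4.15 after O3, against 3.92, 4.05, 4.06 and 4.25 in air, and the cytokine genes Il1b, Tnf and Il6 had changes of -0.20, 0.10 and 0.31 with adjusted p-values of 0.918 to 0.980. Il6 had 4.46, 4.48 and 4.30 after O3, against 4.01, 4.09, 4.43 and 3.89 in air. The groups overlapped in all 4 of these genes. The Il10 and Il6 values lay near the low end of the scale, so the arrays cannot decide whether either gene changed. Over the 25 arrays the Il10 probe set had a mean of 5.38, above every Il10 value given here. By PCR, the paper reports a significant rise of Il10 mRNA in Il10+/+ lung at the exposure time compared here. It also reports significant rises of TNF-α and inducible nitric oxide synthase mRNA during O3 in both strains. For Socs3 mRNA, also measured by PCR, the paper reports a significant rise in Il10+/+ lung at this and the later exposure times. In lavage fluid, the paper reports a significant rise after O3, in both strains, of the protein that Cxcl2 encodes. That is protein in airway fluid, while the Cxcl2 values here are RNA levels of whole lung.

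In the unfolded protein response 5 of 16 were above air, among them Herpud1 (change 0.42) and the stress transcription factor gene Atf4 (change 0.32). In the immediate early list 4 of 23 were above and 2, Nr4a1 and Klf6, below, with Maff, a small MAF protein that pairs with NRF2, at 7.68, 8.06 and 8.28 after O3, against 7.22, 7.22, 7.59 and 7.14 in air (change 0.72, adjusted p = 0.149). Macrophage activation had 3 of 18 above, glucocorticoid targets 3 of 15 and NF-kB components and targets 2 of 22, with 2 of the 22 below. Matrix metalloproteinases and their inhibitors had 2 of 15 above and 3 below, among them Mmp9 (change -0.43) and Mmp11 (change -0.44). Interferon-stimulated genes had 1 above, Ifit3, and 1 below, Rsad2, of 21. The collagen and matrix list had a median of -0.22, with Postn and Col3a1 below air and Tnc, the injury-induced matrix protein tenascin C, above it at 8.41, 7.97 and 8.12 after O3, against 6.46, 7.42, 7.56 and 6.60 in air (change 1.16, adjusted p = 0.786 over 25 and 0.0713 over 13).

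The genes with the lowest change among those below air did not pass in either fit. Cbl, a ubiquitin ligase that shuts off growth factor receptors, had 5.61, 4.80 and 4.98 after O3, against 6.55, 5.94, 5.97 and 7.13 in air (change -1.27, adjusted p = 0.786). Igfbp3, a carrier of insulin-like growth factors, had 8.18, 8.46 and 8.68 after O3, against 9.23, 8.97, 9.40 and 9.25 in air (change -0.78, adjusted p = 0.561). Slc4a1, the anion exchanger of red blood cells, had 6.97, 6.09 and 6.06 after O3, against 7.71, 7.56, 7.10 and 7.63 in air (change -1.12). O3 replicate 1 was nearest to air in Cbl and Slc4a1 and farthest from it in Igfbp3. Ms4a1, which encodes the B cell antigen CD20, had 8.16, 7.37 and 7.38 after O3, against 8.69, 9.36, 8.25 and 9.01 in air (change -1.19, adjusted p = 0.846). The other 11 of the 15 lowest were Dhx36, Diaph2, Bbx, Nrip1, Rsad2, Tril, Glcci1, Aspn, Sp1, Nr2c2 and Satb1, with changes of -0.78 to -0.99. These are changes of each gene's brightest probe set, and its other probe sets did not always follow. They changed by only -0.22 in Cbl, -0.08 in Dhx36 and Sp1, and -0.18 and -0.26 in Bbx. In Ms4a1 (-0.82), Nrip1 (-0.76), Tril (-0.80) and Rsad2 (-0.86 and -0.78) they did follow.

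The medians of B and T cell markers were below 0, and no marker of either passed the test. The 12 B cell markers had a median change of -0.51, with Ms4a1 and Blk below air, and their summed linear level was 3036, 1750 and 1981 after O3, against 3612, 3859, 2630 and 3671 in air. The 14 T cell markers had a median of -0.19, with Cd8b1, Cd28 and Cd3d below air, and sums of 1146, 999 and 1029, against 1217 to 1328 in air. For T cells the groups did not overlap, and for B cells O3 replicate 1 lay above air 48 hr replicate 1. The 9 dendritic cell markers had a median change of -0.04, with 3 of them above 0. Their sums were 1262, 1199 and 1234 after O3, against 1029, 1150, 964 and 970 in air. That list holds Ccl17, which rose, and Ccl22, and without both its sums were 689, 618 and 686 after O3, against 766, 876, 725 and 774 in air. Alveolar macrophage sums overlapped, at 7699 to 9428 after O3 and 7480 to 9214 in air. In RNA of whole lung, fewer cells of a type and less RNA per cell cannot be told apart. The part of these shifts in the lower values of Ms4a1, Satb1 and Vcam1 was not tested.

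None of 15 neutrophil markers was above air on all O3 arrays, Mmp9 and Elane were below, and the sums were 4692, 3765 and 2652 after O3, against 5059, 4450, 3263 and 6492 in air. The median change of the 15 was -0.10, within a range of -1.15 to 0.60, and 3 had a change above 0. S100a8, a calcium-binding protein abundant in neutrophils, had 10.15, 8.17 and 8.72 after O3, against 10.42, 10.04, 9.15 and 10.70 in air (change -1.06, adjusted p = 0.821). In lavage fluid of the right lung, the paper reports O3-induced increases in neutrophils, larger in Il10-/- mice. Those are counts of airway cells, while the values here are RNA levels of whole left lung. The arrays therefore cannot decide whether neutrophils entered the airways. The 4 red blood cell genes had sums of 1901 to 2303 after O3 and of 2452 to 2951 in air. Alveolar type 2 markers summed to 76242 to 78331 after O3 and to 72119 to 75221 in air, with 1 of 9 members, Sftpa1, above air. No marker of alveolar type 1 cells, endothelium or alveolar macrophages lay outside the air range on all O3 arrays.

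Heart muscle and fat RNA differed between arrays within both groups. All 11 heart muscle markers had a higher mean after O3, by 0.26 to 0.60 (median 0.42), and the groups overlapped in each. The 11 heart muscle markers summed to 4811, 14782 and 3393 after O3, against 2821, 3458, 7806 and 6503 in air, and the 7 adipocyte markers to 484, 2493 and 208, against 470, 357, 1313 and 875. O3 replicate 2 had the highest sum of both. Ankrd1, an ankyrin repeat protein first known from heart muscle, was also highest there, with 8.55, 9.30 and 8.74 after O3, against 7.64, 7.90, 7.76 and 8.16 in air (change 1.00, adjusted p = 0.0360 over 13 arrays). The part of heart muscle in its value was not tested. The 3 prime minus 5 prime difference of the Gapdh control probe sets, a sign of RNA breakdown, was 0.38, 0.50 and 0.14 after O3, against 0.38, 0.32, 0.80 and 0.10 in air.

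**Figure D3:**
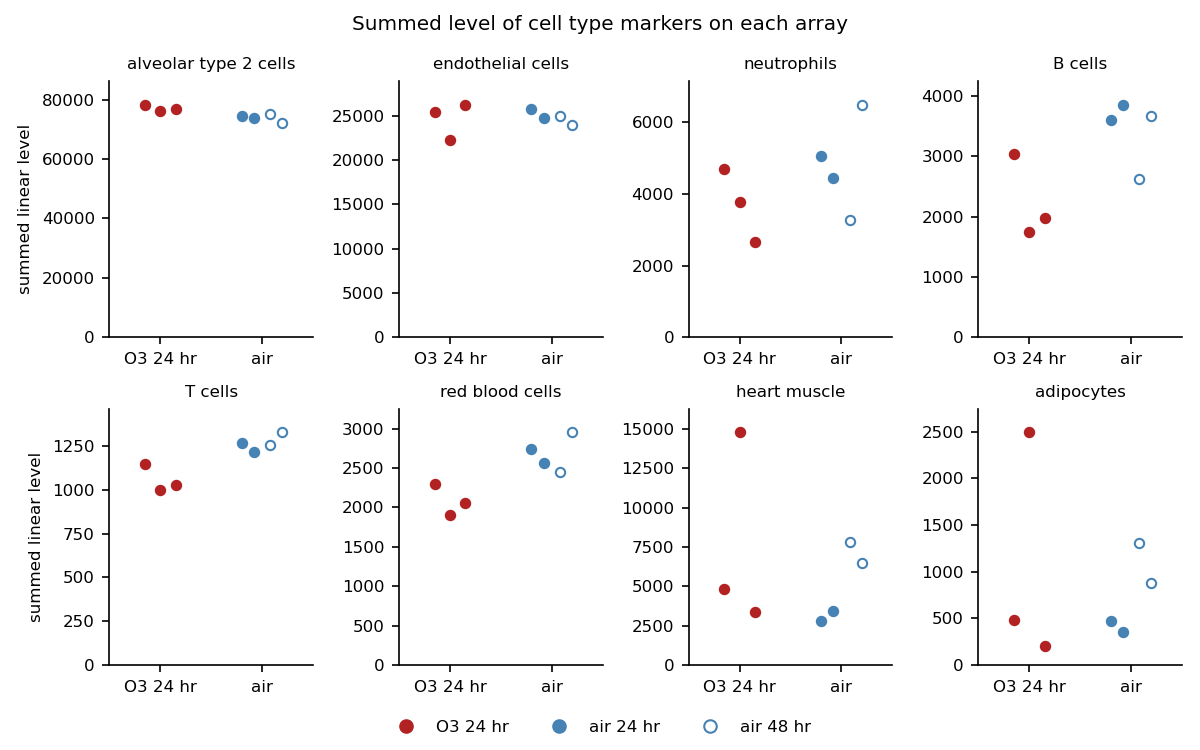
Summed linear level of the markers of 8 cell types on each array, with O3 24 hr (red) left of air (blue, 24 hr filled and 48 hr open). T cell and red blood cell sums are lower on all O3 arrays, alveolar type 2 sums higher, and O3 replicate 2 stands out in heart muscle (14782) and adipocytes (2493).

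The changes against air at 24, 48 and 72 hr share the same 4 air arrays, so they are given only side by side. For Ccl17 they were 1.53, 1.74 and 1.41, for Cd14 0.89, 1.06 and 1.04, and for Akr1b8 0.85, 1.24 and 1.30. For F3 they were 1.13, 1.58 and 1.13, and for Thbs1 1.27, 1.74 and 1.55. For Osgin1 they were 0.70, 0.38 and 0.33, highest at 24 hr. None of the 6 genes passed the direct test of 48 against 24 hr of O3, with adjusted p-values of 0.387 to 0.846.

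Over all genes, 101 were higher (0.815%) and 9 lower (0.0726%) at 48 than at 24 hr of O3, and 126 were higher (1.02%) and 21 lower (0.169%) at 72 than at 24 hr. The list of DNA replication and division stood out among the lists, by its count of genes higher later on. At 24 hr none of the 44 measured members had been called against air, 5 were above it and 2 below, and the median change was 0.02. At 48 hr 31 of the 44 were higher than at 24 hr, and at 72 hr 30 of the 44 were, with none lower at either time. Tk1, the thymidine kinase of S phase, had 5.34, 5.18 and 5.38 at 24 hr, 6.88, 6.86 and 7.09 at 48 hr, and 7.10, 6.93 and 7.28 at 72 hr, against 5.09, 5.48, 5.09 and 5.13 in air. It was higher at 48 than at 24 hr by 1.65 (standard error 0.17, adjusted p = 1.3e-05). Mki67, the Ki-67 antigen of dividing cells, had 6.45, 6.68 and 5.91 at 24 hr and 8.33, 8.78 and 9.58 at 48 hr, against 6.53, 7.01, 6.84 and 6.61 in air. Mcm5, a subunit of the replication helicase, was already above air at 24 hr, with 6.47, 6.82 and 6.69 against 6.33, 6.07, 6.31 and 6.20 (change 0.43, adjusted p = 0.864), and was higher again by 1.28 at 48 hr (adjusted p = 0.00869).

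In keratins and injured epithelium 2 of 18 genes were higher at 48 than at 24 hr and 4 at 72 hr, with none lower. S100a14 was higher by 1.23 at 48 hr (adjusted p = 0.0306) and by 1.46 at 72 hr (adjusted p = 0.00516), and Krt8, a keratin of simple epithelium, by 0.61 (adjusted p = 0.0154) and 0.63 (adjusted p = 0.00897). Krt18 and Anxa1 passed at 72 hr only. In the other lists, Vcan, the matrix proteoglycan versican, and Clec7a, the fungal glucan receptor dectin-1 of macrophages, were higher at both times, Ereg at 48 hr, and Egr1 and Mmp14 at 72 hr. Ephx1, which hydrolyses epoxides, was lower at both times, by 0.51 and 0.50, and the complement gene C2 was lower at 72 hr.

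Tnfsf9 was higher at 48 than at 24 hr by 0.92 (standard error 0.20, adjusted p = 0.0220). Retnla had a difference of 1.20 over the same step (adjusted p = 0.0754), Sprr1a one of 1.12 (adjusted p = 0.446) and Timp1 one of 1.07 (adjusted p = 0.609).

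**Figure D4:**
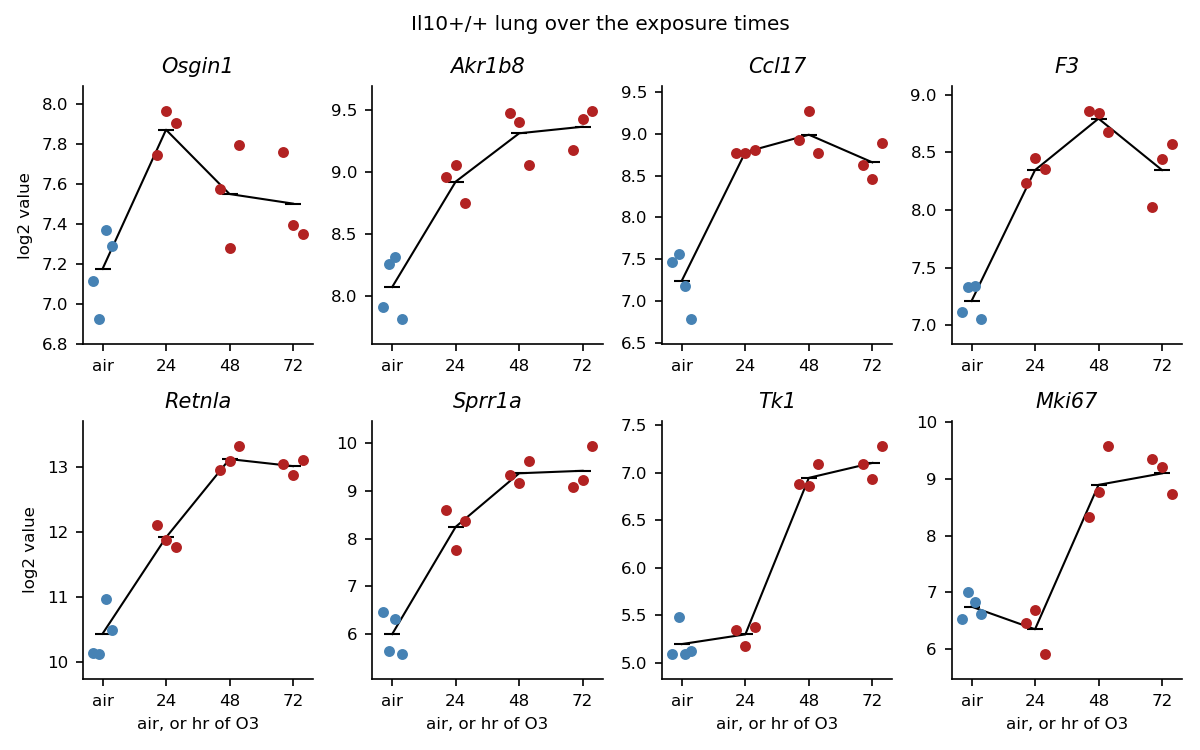
Log2 values of 8 genes in Il10+/+ lung in air (blue, 4 arrays) and at 24, 48 and 72 hr of O3 (red, 3 arrays each), with group means joined by a line. Akr1b8, Ccl17, F3, Retnla and Sprr1a are above air from 24 hr on, Osgin1 has its highest mean at 24 hr, and Tk1 and Mki67 are near air at 24 hr and above it at 48 and 72 hr.

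In Il10-/- mice the 24 hr comparison has its own 4 air arrays and 2 O3 arrays. These 2 O3 arrays, replicates 1 and 3, stood apart from each other, with an r of 0.965, the lowest among the 25 arrays, and 139 genes over 2 apart on the log2 scale. Timp1 had 11.53 and 6.79 on them, against 7.08 to 7.58 in Il10-/- air, and Saa3 had 10.87 and 7.64, against 5.74 to 6.37. There 164 genes were higher (1.32%) and 95 lower (0.766%), and Ccl17 (1.43), Cd14 (1.31), Akr1b8 (1.36), Osgin1 (0.61) and F3 (1.43) were among the higher. Thbs1 had a change of 0.88 with an adjusted p of 0.0847. The difference between the genotypes in the 24 hr response was tested for every gene, and limma called 0 genes, with 891 at an unadjusted p under 0.05. For the 6 genes that difference lay between -0.39 (Thbs1) and 0.51 (Akr1b8), with adjusted p-values of 0.662 to 0.979. More genes passed in 1 genotype than in the other, and that is no test of a difference between them.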

How the data were processed

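The authors deposited log2 values made from the arrays' intensity files by Robust Multichip Average in RMAExpress (background correction, quantile normalization, median polish), with the version not given in the sources used here. The values were used as deposited, with no measure of background per probe set, and the number of arrays limits the precision. Probe sets were named with the platform's annotation. Those with several symbols (691) or unlisted (1606, of which 64 are controls) were left out, and the brightest probe set stood for each of the 4958 genes with more than 1. No gene had called probe sets of opposite sign. A gene's position is that of GRCm38.p6.

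The fits were made in limma 3.58.1 (R 4.3.3), with 1 mean per group, each genotype's air arrays of both times as 1 group, and Benjamini-Hochberg adjustment over 12394 genes at 0.05. Summed levels are of 2 to the power of the log2 value. Alternatives were all 26, the 13 Il10+/+ or the 7 arrays, array weights, air of the same time, a replicate block, a filter on low genes, median centring, other uses of probe sets, and leaving out each array. Left-out arrays, weights, centring and the block within the 13 arrays were added after seeing the data. The scripts were tested on simulated data. Promoters are RefSeq's, and the plots were made in Python 3.11.15 with matplotlib 3.10.9.

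The arrays, gene lists and tests were chosen with earlier results of these data known, as was the choice to leave out Il10-/- O3 24 hr replicate 2. Genes named are those called (up to 15 per direction), the 15 largest changes per direction without overlap, up to 4 members of each list and 3 of each cell type list with the lowest p, and those the study's text names; further list members and all genes called over 13 arrays were named after their values were seen.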

Additional observations from a re-analysis of the deposited data

Results flagged for a closer look

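Of 52 genes examined, 4 had an air array far from the other 3, and chance alone does this in about 1 of 20 groups. Cd14 had 8.53 on air 24 hr replicate 1, against 8.94 to 9.01 on the others. Air 48 hr replicate 2 stood apart in the other 3 genes. Timp1 had 6.66 there, against 7.26 to 7.38, Satb1 had 7.61, against 7.92 to 7.95, and Gadd45g had 8.29, against 7.87 to 7.92. All 3 O3 arrays lay outside the range of all 4 air arrays in each of these 4 genes.

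Among these 52 genes, which leave out most list members, Tnfsf9 was the one that differed between 48 and 24 hr of O3 in Il10+/+ lung, by 0.92 on the log2 scale (standard error 0.20, adjusted p = 0.0220 from limma).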

How the results depend on the processing

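The 6 higher genes became 0 with all 26 arrays, 32 (and 2 lower) with the 13 Il10+/+ arrays, 60 (and 15 lower) with array weights, 2 with air of the same exposure time, 10 with the genes of lowest mean left out and 3 with every probe set as its own feature, of which Socs3 was not among the 6. The 7 arrays alone gave 9, with Ccl17 and F3 of the 6. Leaving out 1 of the 7 arrays gave 0 to 11 higher and 0 to 1 lower genes, with 11 and 1 without air 48 hr replicate 1. With air of the same time, 1743 genes lay above and 1504 below air, and with 1 array left out 699 to 1309 and 573 to 1085 did. A gene apart on all 7 arrays stays apart on fewer, so these counts cannot fall when arrays are left out. More genes lay below than above without O3 replicate 2 (881 above, 900 below) and without air 48 hr replicate 2 (936 above, 1085 below), against 545 above and 445 below with all 7 arrays. The genotype difference at 24 hr was called in 3 genes with the replicate block and in 1 with median centring. Within the 13 arrays, weights gave 61 higher and 17 lower genes, the replicate block 1 lower, and leaving out 1 array 12 to 39 higher and 0 to 7 lower. The causes were not tested.

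The titles of same-numbered O3 and air arrays share a number and name no pairing. Their deviations from the group means correlated at 0.29 and 0.15 with air 24 hr and at -0.02 and -0.24 with air 48 hr. So few pairs cannot decide whether such arrays were handled together. With the replicate block 8 genes were called, 5 of them among the 6. Over single genes, 757 values kept their side of the threshold, 71 moved past it and 56 fell short of it, and of the list medians 420 moved by less than the spread between arrays and 53 by more.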

Other observations

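The 3 O3 arrays differed among themselves in genes of the circadian clock. Dbp, an output gene of the clock, had log2 values of 4.93, 8.49 and 7.37 after O3, against 5.79, 5.87, 5.39 and 5.88 in air. Nr1d1, which encodes the clock repressor REV-ERB alpha, had 7.28, 8.50 and 8.35 after O3, against 7.38, 6.89, 7.20 and 7.58 in air. O3 replicate 1 lay near or below the air arrays in both, and O3 replicates 2 and 3 lay above all of them. Of 19 measured clock genes none had all O3 arrays outside the air range, and the median change was 0.11.

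Genes of heat shock proteins also varied within both groups. Hspa1a, which encodes an inducible form of the chaperone HSP70, had 8.90, 10.83 and 10.06 after O3, against 9.36, 8.60, 10.23 and 8.10 in air. The list's median change was 0.31 over 14 genes, with 1 member, Hspb8, above air on all O3 arrays.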
